A study of Caenorhabditis elegans with 6 samples.

Results

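The basement membrane genes described here are 10 genes of Caenorhabditis elegans chosen by name: the type IV collagen chains emb-9 and let-2, the laminin chains epi-1, lam-3, lam-1 and lam-2, the nidogen gene nid-1, the type XVIII collagen gene cle-1, the SPARC gene ost-1 and the peroxidasin gene pxn-2. They are 10 of 47656 genes in the deposited tables, and all 10 had a value in all 6 libraries. RNA was sequenced from whole worms of N2, the standard laboratory strain; 3 libraries came from animals fed D-mannose and 3 from animals that received water. Both groups were 6 days old and lived on plates with the OP50 strain of Escherichia coli as food; the dose of the sugar was not given in the sources used here. At issue is whether dietary D-mannose goes with other transcript levels. The values are FPKM, fragment counts scaled to gene length and to a size set for each library. Levels of different genes can therefore be set side by side. Nothing in the labels says that the libraries of a group came from separate cultures, so p-values measure the spread between these libraries.

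A basement membrane is a thin sheet of secreted matrix that lies under epithelia and around muscle, pharynx, intestine and gonad. Laminin, a trimer of an alpha, a beta and a gamma chain, assembles first on cell surfaces, and type IV collagen forms another, covalently linked network that gives the sheet its strength. Nidogen binds both networks. In the worm, body wall muscle makes most of the type IV collagen, and its trimers contain both collagen chains.

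The libraries held 39892258 to 46041030 read equivalents, the number of fragments that the FPKM values stand for. Markers of muscle, intestine, epidermis, neurons, germline and sperm were all detected, as whole worms should give, while 2 of 8 early embryo markers were at 0 in at least 1 library. The libraries of a group differed widely in the summed level of 24 oocyte and germline markers. The sum was 6653, 4017 and 2500 FPKM in mannose 1, 2 and 3, against 2586, 3160 and 6744 FPKM in water 1, 2 and 3. Each group thus had 1 library with a high sum, mannose 1 and water 3. Not all markers of the list went that way, and syp-2 and him-3 were lowest in mannose 1 and water 3. There syp-2 had 84.8 and 83.4 FPKM, against 98.5 to 110.1 in the rest, and him-3 had 133.3 and 121.1, against 154.1 to 168.7. Values without mannose 1 and water 3 are given beside most results of the tested members, the ratios and the list medians. In whole worms, fewer cells of a type and less RNA per cell cannot be told apart.

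The members spanned a wide range of level. The gene ost-1 was by far the highest, with a mean of 301.2 FPKM over the 6 libraries. Next came let-2 with 39.2 and emb-9 with 35.3 FPKM, then nid-1 with 12.9, lam-1 with 6.91, cle-1 with 6.11 and lam-2 with 3.78 FPKM. The laminin alpha chains and pxn-2 were lowest, with 0.575 FPKM for epi-1, 0.406 for pxn-2 and 0.346 for lam-3. Ranges over the 6 libraries were apart between ost-1 and let-2, between emb-9 and nid-1, between nid-1 and lam-1, and between lam-2 and epi-1. The ranges of the other 5 neighbouring pairs overlapped. Of those, let-2 was above emb-9 in 6 of 6 libraries and epi-1 above pxn-2 in 6 of 6, whereas lam-1 was above cle-1 in 4 of 6.

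**Figure D1:**
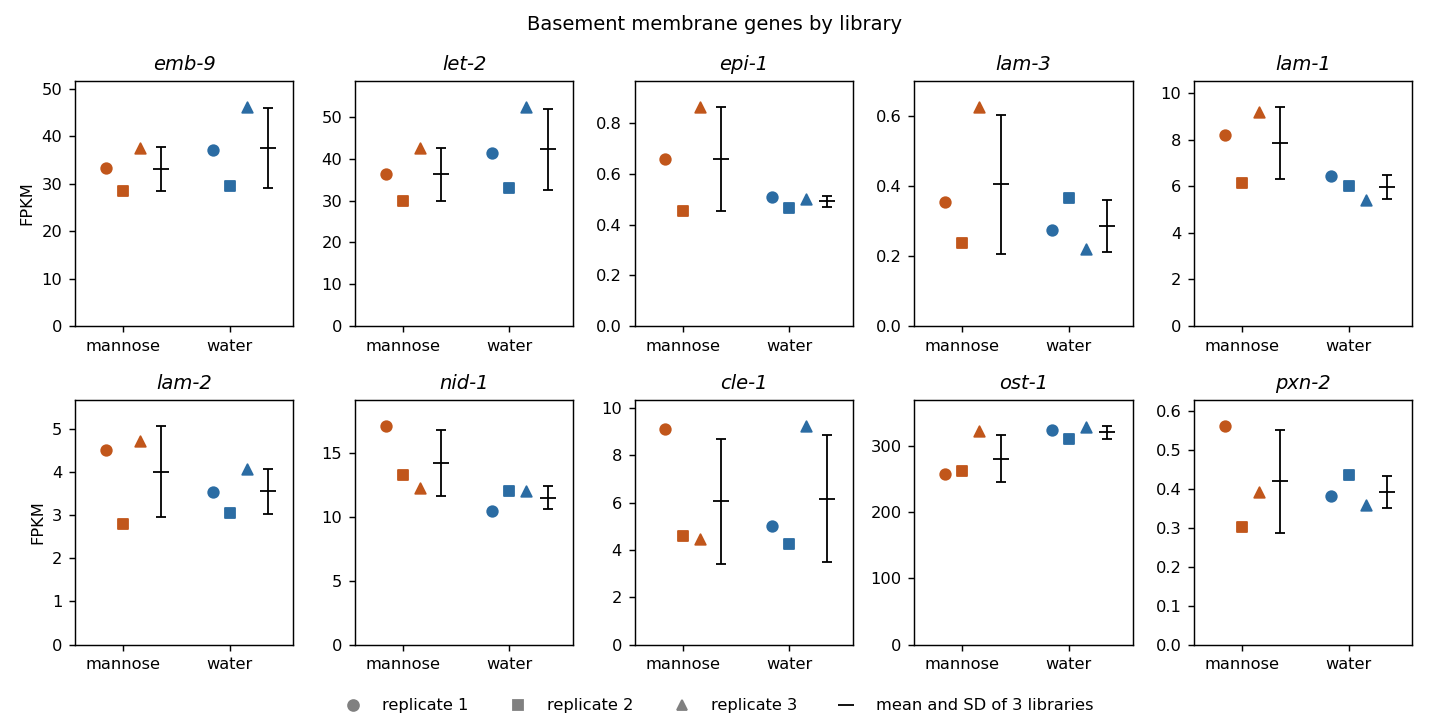
FPKM of each basement membrane gene in the 3 mannose and 3 water libraries (points, 1 shape per replicate number), with mean and SD beside each group; each panel has its own axis from 0. The groups overlap for each gene but nid-1, whose mannose libraries (12.3 to 17.1 FPKM) lie above its water libraries (10.4 to 12.0 FPKM).

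No basement membrane gene passed the test between mannose and water. The test was limma on log2(FPKM + 1) over the 11237 genes with at least 1 FPKM in at least 3 libraries, with a threshold of 0.05 on the Benjamini-Hochberg adjusted p. Of the 10 members, 7 entered it, and epi-1, lam-3 and pxn-2 were below the filter in all 6 libraries. The adjusted p was 0.9999 for each of the 7, and 0% of all tested genes were called by limma. At an unadjusted p under 0.05 there were 0 members, where 4.73% of all tested genes lay under it, and the lowest member p was 0.11, for lam-1. By estimate, 3 of the 7 were higher and 4 lower in mannose; their log2 differences had a median of −0.022, against 0.015 over all tested genes, of which 54.5% were higher. A fit with no filter, which took in all 10, also called 0 of them (adjusted p of 0.92 to 0.9993) and 0% of its genes. At an unadjusted p under 0.05 it held 0 members and 4.11% of its genes, and the groups did not overlap in 1 of the 10 members and in 8.65% of its genes.

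The type IV collagen chains varied together from library to library and did not differ between the groups beyond that spread. The gene emb-9 (III, 9336881 to 9344447, minus strand), for the alpha1-like chain, had 33.4, 28.4 and 37.5 FPKM in mannose 1, 2 and 3, against 37.1, 29.5 and 46.2 in water 1, 2 and 3. The gene let-2 (X, 16377600 to 16389371, minus strand), for the alpha2-like chain, had 36.3, 29.8 and 42.7 FPKM in mannose 1, 2 and 3, against 41.4, 32.95 and 52.3 in water 1, 2 and 3. For both chains water 3 was the highest library and mannose 2 the lowest, and the groups overlapped. These values rest on 6638 to 12104 read equivalents per gene and library, so counting error is small beside the spread. The log2 difference, mannose minus water, was −0.16 for emb-9 (95% interval −0.66 to 0.33) and −0.20 for let-2 (−0.74 to 0.33). Water 3 carried most of it: without that library the differences were −0.0073 and −0.041, and without mannose 1 and water 3 they were −0.017 and −0.049. Without water 2 they were −0.32 and −0.37, without mannose 3 −0.26 and −0.33, and without mannose 2 −0.061 and −0.075.

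The ratio of the 2 collagen chains was nearly constant. It was 0.920, 0.952 and 0.880 FPKM of emb-9 per FPKM of let-2 in mannose 1, 2 and 3, against 0.895, 0.895 and 0.883 in water 1, 2 and 3. Over the 6 libraries its coefficient of variation was 3.03%, although each chain itself varied 1.62-fold and 1.75-fold between its lowest and highest library. The likeness of patterns was measured as the root mean square difference of log2 values centred on each gene's mean over the 6 libraries. By this measure let-2 was the closest of 7527 other genes with a mean of at least 5 FPKM to emb-9, and emb-9 the closest to let-2, at 0.039 log2 units. After it, the intestinal GATA factor gene elt-2 and pqn-48 came next for both chains, at 0.055 and 0.064 from emb-9. This is a description over 6 libraries, and 7527 genes were searched.

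**Figure D2:**
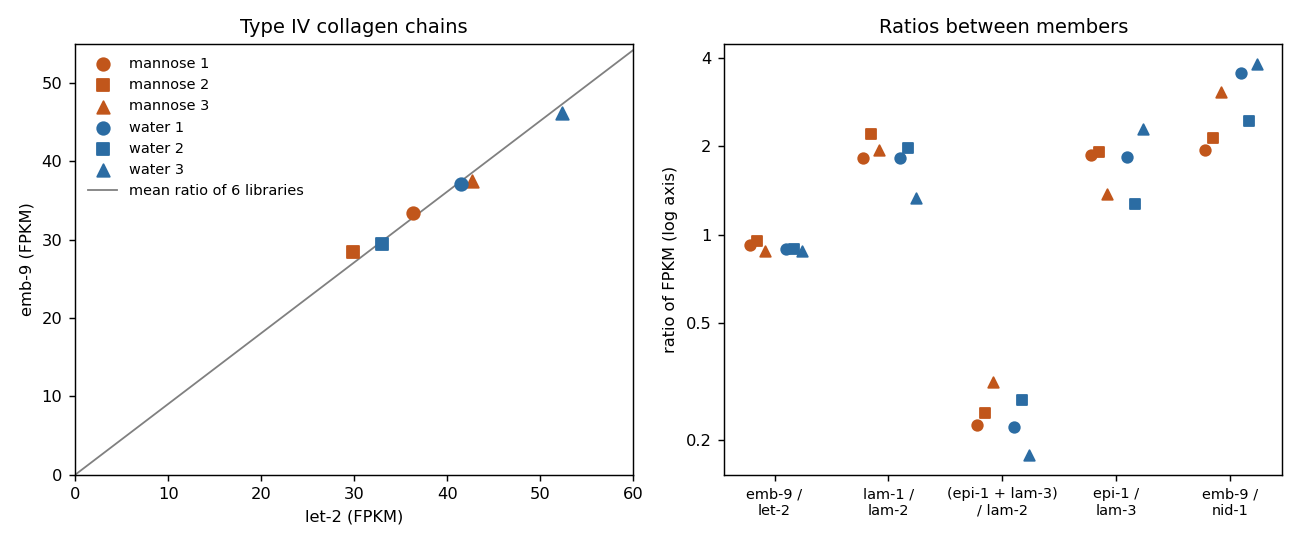
Left, FPKM of emb-9 against let-2 in each library, with a line at the mean ratio of the 6 libraries (0.904). Right, ratios of FPKM between members in each library on a log axis. The ratio of emb-9 over let-2 stays within 0.880 to 0.952, while each of the other ratios shown spans at least 1.66-fold.

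The laminin chains were highest in mannose 3, and no chain separated the groups. The beta chain gene lam-1 (IV, 5173332 to 5183746, plus strand) had 8.21, 6.17 and 9.19 FPKM in mannose 1, 2 and 3, against 6.45, 6.03 and 5.43 in water 1, 2 and 3. Mannose 1 and 3 lay above all water libraries, but mannose 2 lay below water 1. Its log2 difference was 0.33 (95% interval −0.099 to 0.77), the largest of the 7 tested members, and it ranged from 0.22 without mannose 3 to 0.48 without mannose 2. The gamma chain gene lam-2 (X, 7143846 to 7151239, minus strand) had 4.51, 2.79 and 4.72 FPKM in mannose 1, 2 and 3, against 3.54, 3.04 and 4.08 in water 1, 2 and 3. Mannose 2 was the lowest of all 6, and the groups overlapped. The log2 difference of lam-2 was 0.12 (−0.37 to 0.61). It was 0.012 without mannose 3, 0.039 without mannose 1, 0.038 without water 2, 0.20 without water 3 and 0.31 without mannose 2.

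The alpha chains, of which each laminin trimer takes either kind, were low. The gene epi-1 (IV, 10666821 to 10679291, plus strand), for the alphaB chain, had 0.660, 0.452 and 0.862 FPKM in mannose 1, 2 and 3, against 0.507, 0.465 and 0.502 in water 1, 2 and 3. The gene lam-3 (I, 10608466 to 10621435, plus strand), for the alphaA chain, had 0.353, 0.236 and 0.625 FPKM in mannose 1, 2 and 3, against 0.276, 0.366 and 0.219 in water 1, 2 and 3. Both were highest in mannose 3, and their groups overlapped. In the fit with no filter the log2 differences were 0.15 for epi-1 (95% interval −0.14 to 0.43) and 0.12 for lam-3 (−0.19 to 0.43). At these levels the log2(FPKM + 1) scale understates a change. Low as the FPKM values are, they stand for 211.7 to 478.3 read equivalents of epi-1 and 80 to 292 of lam-3, since the genes are listed at 11233 and 9458 bases, the longest of the members.

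Ratios between the laminin chains varied more than the collagen ratio. The ratio of lam-1 to lam-2 was 1.99 ± 0.199 in mannose, against 1.71 ± 0.340 in water (SD, n = 3 each). The ratio of epi-1 to lam-3 was 1.72 ± 0.297 in mannose and 1.80 ± 0.511 in water. The summed alpha chains reached 0.262 ± 0.0469 of lam-2 in mannose and 0.224 ± 0.0482 in water, although a laminin trimer holds as much alpha as gamma chain. How reads spread along these long transcripts was not analysed here. In each of these ratios the groups overlapped. The difference in the ratio of lam-1 to lam-2, mannose minus water, was 0.281, and it was 0.0901 without water 3, 0.171 without mannose 2 and 0.176 without mannose 1 and water 3. That of epi-1 to lam-3 was −0.0808 and had no stable sign: it was 0.164 without water 3, 0.0900 without mannose 3 and 0.0909 without mannose 1 and water 3, and ran down to −0.346 without water 2. That of the summed alpha chains to lam-2 was 0.0383, and it was 0.0120 without mannose 3, 0.0148 without water 3, 0.0630 without water 2 and 0.0335 without mannose 1 and water 3. By pattern, lam-1 was the closest member to lam-2, at place 129 of 7528 genes, and the closest genes to lam-2 were ifb-1, which encodes an intermediate filament of the epidermis, grd-14 and B0336.13. The closest to lam-1 were pept-2, T20F10.2 and ins-27.

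Nidogen was the 1 member whose groups did not overlap, and its difference still missed the test. The gene nid-1 (V, 12910107 to 12917221, plus strand) had 17.1, 13.3 and 12.3 FPKM in mannose 1, 2 and 3, against 10.4, 12.0 and 12.0 in water 1, 2 and 3. Mannose 1 stood clear of the rest, while mannose 3 lay just above water 2 and water 3. Groups that do not overlap were found in 10.7% of all tested genes, 5.42% with the mannose libraries higher and 5.31% with them lower, so 1 of 7 members is close to the background. The log2 difference was 0.27 (95% interval −0.15 to 0.70, unadjusted p = 0.17), and it was 0.14 without mannose 1 and 0.17 without mannose 1 and water 3. The closest genes to nid-1 were ZC506.1, tag-151 and eif-2Bdelta. The ratio of emb-9 to nid-1 was 2.38 ± 0.596 in mannose, against 3.28 ± 0.732 in water, and that of emb-9 to lam-2 was 8.51 ± 1.47 in mannose, against 10.5 ± 0.814 in water (SD, n = 3 each). In both ratios the groups overlapped. The difference in the ratio of emb-9 to nid-1 was −0.894, from −1.31 without water 2 to −0.616 without water 3 when 1 library was left out, and −0.399 without mannose 1 and water 3.

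The gene ost-1 (IV, 1107396 to 1110872, plus strand) encodes SPARC, a secreted protein that binds calcium and collagen. It had 258.5, 263.1 and 322.3 FPKM in mannose 1, 2 and 3, against 324.0, 310.3 and 329.1 in water 1, 2 and 3. Mannose 1 and 2 lay below all water libraries, and mannose 3 lay among them. The log2 difference was −0.20 (95% interval −0.49 to 0.094), and −0.12 without mannose 1 and water 3. Its spread over the 6 libraries, an SD of 0.158 log2 units, was the smallest of the 7 tested members, and 23.95% of tested genes had a smaller one. Its closest gene was zipt-13, a zinc transporter gene of the ZIP family, at 0.012 log2 units, followed by F35H10.5 and F02A9.11.

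The gene cle-1 was high in the 2 libraries with the highest sums of oocyte and germline markers, 1 in each group. It encodes the worm's type XVIII collagen, which is enriched in the nervous system (I, 8705668 to 8724279, minus strand). It had 9.12, 4.57 and 4.48 FPKM in mannose 1, 2 and 3, against 4.998, 4.26 and 9.25 in water 1, 2 and 3. Mannose 1 and water 3 stood apart from the other 4 libraries, which lay between 4.26 and 4.998 FPKM. The median deviation of the oocyte and germline markers was 0.85 and 0.72 log2 units in mannose 1 and water 3, and −0.71 to 0.068 in the other 4; their part in the values of cle-1 was not tested. With a large SD within both groups, the log2 difference was −0.022 (95% interval −0.89 to 0.84). It was 0.27 without water 3, −0.31 without mannose 1, −0.21 without water 2, −0.12 without water 1, 0.12 without mannose 2, 0.13 without mannose 3 and −0.024 without both mannose 1 and water 3. The closest genes were toe-4, Y71H2AM.6 and alh-11. Over 158 bases, 3.61% of its exonic bases in the Ensembl annotation, cle-1 shares exons with cdk-8 on the opposite strand. The strand setting of the counting was not given in the sources used here, and cdk-8 itself had 25.6 FPKM in water 3 and 33.6 to 37.02 FPKM in the other 5 libraries.

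The gene pxn-2 (X, 10972164 to 10979286, minus strand) encodes a peroxidasin, an enzyme that in flies and mammals cross-links type IV collagen. It had 0.563, 0.303 and 0.394 FPKM in mannose 1, 2 and 3, against 0.382, 0.437 and 0.359 in water 1, 2 and 3. These are 52 to 88 read equivalents, and both the highest and the lowest value fell in mannose. Its log2 difference in the fit with no filter was 0.024 (95% interval −0.22 to 0.27). The paralog pxn-1, no member of the set, was higher in level, at 4.15 ± 0.996 FPKM in mannose, against 3.70 ± 0.499 in water (SD, n = 3 each).

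**Figure D3:**
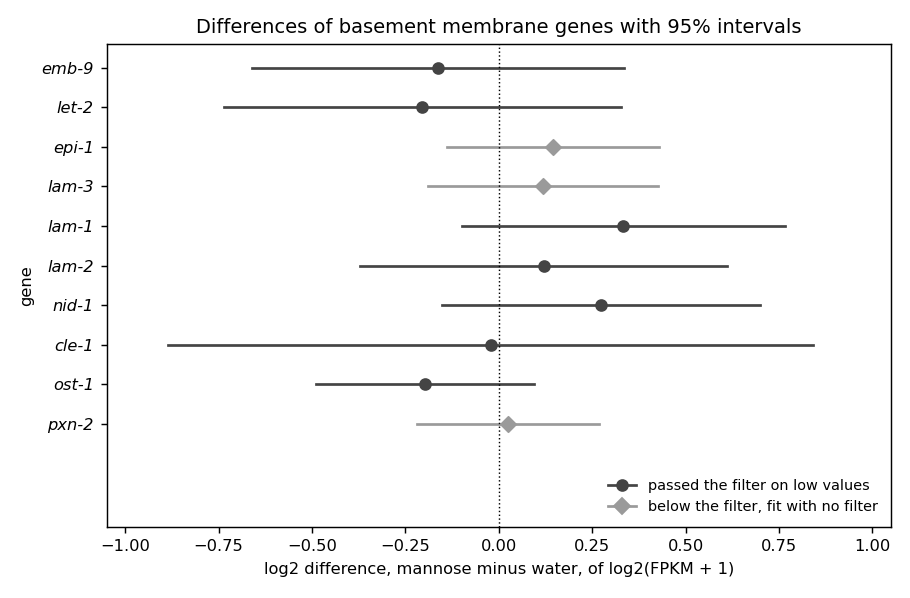
Log2 difference of each basement membrane gene, mannose minus water, on log2(FPKM + 1), with 95% intervals from limma (lines). All 10 intervals include 0; the widest is that of cle-1 (−0.89 to 0.84), and the 3 genes below the filter on low values are shown from the fit with no filter.

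The estimated differences varied with gene length over the whole data set, and 5 of the 7 tested members are long. Of the 505 tested genes listed at 4000 bases or more, 78.4% were higher in mannose and the median log2 difference was 0.19. Of the 3749 genes under 1000 bases, 37.1% were higher, with a median of −0.060. The long genes had median deviations of 0.62, −0.059 and −0.23 in mannose 1, 2 and 3, against −0.50, −0.33 and 0.39 in water 1, 2 and 3. On these medians the groups overlapped, with mannose 1 and water 3 highest and water 1 lowest. With each library's trend with length removed, the log2 difference was 0.051 for lam-1, 0.012 for nid-1, −0.17 for lam-2, −0.44 for emb-9, −0.48 for let-2, −0.19 for ost-1 and −0.24 for cle-1, and none was called. The collagen chains lay below the long-gene median in mannose 1, at −0.062 (emb-9) and −0.087 (let-2), and close to it in water 3, at 0.39 and 0.43. They were also low in water 2, at −0.23 and −0.22, but above 0 in mannose 3 and water 1 (0.086 to 0.14), where the long-gene median was negative.

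**Figure D4:**
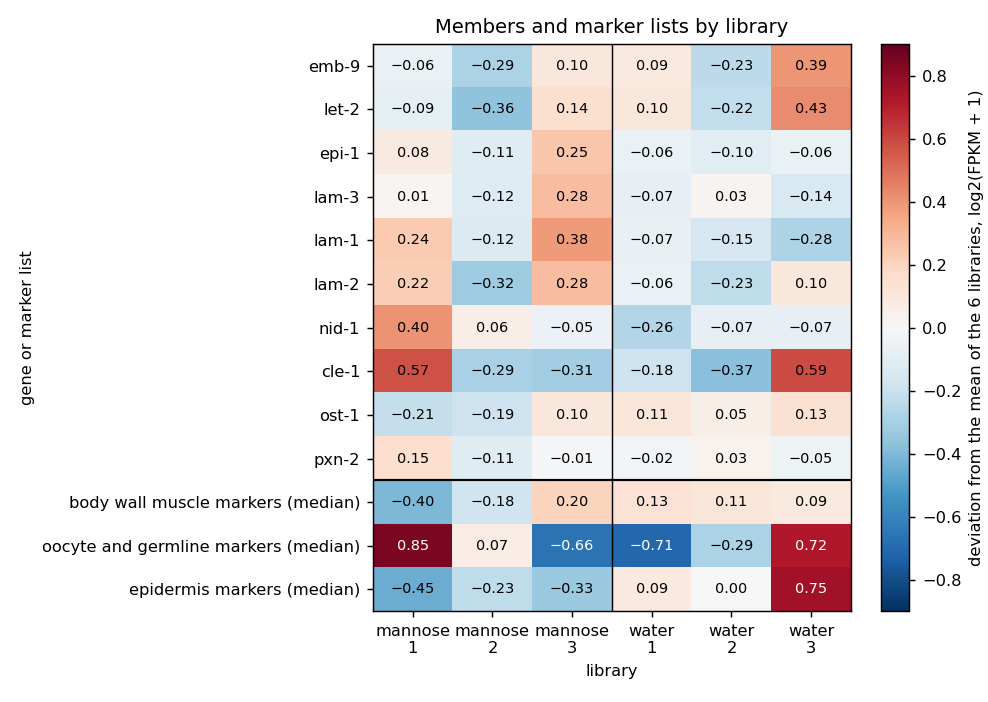
Deviation of each member from its own mean over the 6 libraries, on log2(FPKM + 1), with the median deviations of 3 marker lists below the line; the scale compresses the genes with low values (epi-1, lam-3 and pxn-2). The rows of emb-9 and let-2 are nearly the same, and the row of cle-1 is highest in mannose 1 (0.57) and water 3 (0.59), as is that of the oocyte and germline markers (0.85 and 0.72).

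Markers of tissues that make basement membrane also differed between the libraries. Of the body wall muscle markers, 7 of 8 tested genes had lower estimates in mannose (median log2 difference −0.25) and 0 passed the test. The 10 listed markers summed to 1528, 1748 and 2194 FPKM in mannose 1, 2 and 3, against 2081, 2081 and 2096 in water 1, 2 and 3. By this sum mannose 1 and 2 were low, as they were for ost-1. Not all markers followed the sum. The myosin gene unc-54 had 77.2, 84.8 and 112.2 FPKM in mannose 1, 2 and 3, against 131.7, 90.2 and 141.4 in water 1, 2 and 3. The marker with a higher estimate was hlh-1 (0.091). Of the epidermis markers, 5 of 6 tested had lower estimates (median −0.58), 3 at an unadjusted p under 0.05 (4.73% of all tested genes) and 4 lower without overlap (5.31% of all tested genes). These 5, col-19, dpy-5, rol-6, sqt-3 and dpy-13, encode cuticle collagens, and elt-3 had a higher estimate (0.19). The 8 listed summed to 2426, 2098 and 2480 FPKM in mannose 1, 2 and 3, against 2815, 2736 and 3298 in water 1, 2 and 3. Most of each sum was col-19, at 2410, 2081 and 2461 FPKM in mannose 1, 2 and 3, against 2789, 2713 and 3234 in water 1, 2 and 3. The median was −0.56 for sperm (27 of 28 lower), −0.23 for pharynx muscle, −0.027 for intestine, 0.029 for somatic gonad, 0.084 for both neurons and germline, 0.14 for coelomocytes and 0.15 for early embryo. No marker passed the limma test. The part of these cell types in the values of the members was not tested.

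Other genes of the basement membrane and its partners were taken from lists chosen for their roles. None of their genes passed the limma test over all genes. Of 14 other matrix genes, 9 were tested, 5 with higher and 4 with lower estimates in mannose (median log2 difference 0.093). That median was −0.022 without mannose 3, −0.012 without water 3, 0.15 without mannose 1 and 0.011 without mannose 1 and water 3. The smallest p belonged to unc-6, for the guidance cue netrin, at 1.21 ± 0.0683 FPKM in mannose, against 0.875 ± 0.191 in water (SD, n = 3 each), without overlap (as in 10.7% of all tested genes). Next were test-1, for a testican-like proteoglycan, at 166.3 ± 22.1 FPKM in mannose, against 191.6 ± 10.95 in water, and mig-6, for papilin, at 15.1 ± 2.499 in mannose, against 17.8 ± 3.07 in water. The perlecan gene unc-52 had 5.99, 3.13 and 5.11 FPKM in mannose 1, 2 and 3, against 5.56, 4.50 and 8.18 in water 1, 2 and 3.

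Of 9 matrix receptor genes, 4 were tested, 3 of them higher, with a median of 0.15. Leaving out mannose 3 gave 0.073, leaving out mannose 2 gave 0.24, and the median was 0.079 without mannose 1 and water 3. The alpha integrin gene ina-1 averaged 8.48 ± 0.599 FPKM in mannose, against 7.599 ± 1.046 in water, and the alpha integrin gene pat-2 averaged 4.50 ± 1.32 in mannose, against 3.83 ± 0.492 in water. The beta integrin gene pat-3 had 53.8, 37.5 and 27.9 FPKM in mannose 1, 2 and 3, against 23.3, 26.9 and 46.1 in water 1, 2 and 3. It was highest in the libraries with the highest sums of oocyte and germline markers. The dystroglycan gene dgn-1 was also highest in those libraries, with 4.86, 2.53 and 2.06 FPKM in mannose 1, 2 and 3, against 2.22, 2.498 and 6.50 in water 1, 2 and 3. The part of oocyte and germline RNA in these values was not tested.

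All 8 genes of the integrin adhesion complex were tested, and 7 were lower in mannose, with a median of −0.10. The median was −0.063 without water 3, −0.18 without mannose 3 and −0.047 without mannose 1 and water 3. The exception was the kindlin gene unc-112, at 16.2 ± 1.61 FPKM in mannose, against 13.3 ± 0.808 in water, with no overlap. The LIM domain protein gene unc-95 averaged 14.0 ± 2.59 FPKM in mannose, against 17.01 ± 1.35 in water, and pat-4, for the integrin-linked kinase, averaged 13.5 ± 0.878 in mannose, against 15.8 ± 4.03 in water. The groups also did not overlap for the tensin gene tns-1. It had 9.25, 9.43 and 9.42 FPKM in mannose 1, 2 and 3, against 9.92, 10.01 and 9.89 in water 1, 2 and 3. Groups thus did not overlap in 2 of the 8 genes, against 10.7% of all tested genes.

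Of 16 matrix proteases and inhibitors, 9 were tested, 4 higher and 5 lower, with a median of −0.013. The median was 0.090 without mannose 1 and water 3. The ADAMTS protease gene mig-17 averaged 1.28 ± 0.284 FPKM in mannose, against 0.786 ± 0.326 in water. The matrix metalloprotease gene zmp-3 averaged 3.48 ± 0.983 FPKM in mannose, against 4.69 ± 1.16 in water, and timp-1, for an inhibitor of metalloproteases, averaged 31.9 ± 5.83 in mannose, against 36.8 ± 3.22 in water. Their groups overlapped.

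Of 11 genes of collagen modification and export, 9 were tested, 6 higher and 3 lower, with a median of 0.032. The sign of this median depended on the libraries: it was −0.18 without mannose 1, 0.34 without water 3 and 0.15 without mannose 1 and water 3. The gene let-268, for the lysyl hydroxylase that acts on type IV collagen, had 4.61, 3.98 and 4.18 FPKM in mannose 1, 2 and 3, against 3.37, 2.13 and 2.89 in water 1, 2 and 3. Its groups did not overlap (as in 10.7% of all tested genes), and the log2 difference reached 0.48 (standard error 0.16, unadjusted p = 0.024, adjusted p = 0.9999 by limma). It was the 1 gene of these 5 lists with an unadjusted p under 0.05, out of 39 tested, where 4.73% of all tested genes lay under it. By start and end positions let-268 overlaps mtcu-2 (19.4 FPKM over the 6 libraries) on the same strand. Whether the 2 genes share exons was not worked out, so whether reads had to be divided between them is unknown. The export factor gene tmem-131 averaged 13.9 ± 6.13 FPKM in mannose, against 8.85 ± 3.91 in water, and the disulfide isomerase gene pdi-6 averaged 120.6 ± 19.8 in mannose, against 103.1 ± 16.7 in water. The groups of both genes overlapped, and tmem-131 was highest in mannose 1 (21.0 FPKM) and water 3 (13.3 FPKM). Of this list dpy-18, phy-3, pdi-1, pdi-2 and pdi-3 were also highest in these libraries, while let-268, phy-2, phy-4 and pdi-6 were not. For pdi-1 the values were 332.6 and 383.5 FPKM there, against 120.7 to 155.9 in the rest. The part of oocyte and germline RNA in these values was not tested.

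**Figure D5:**
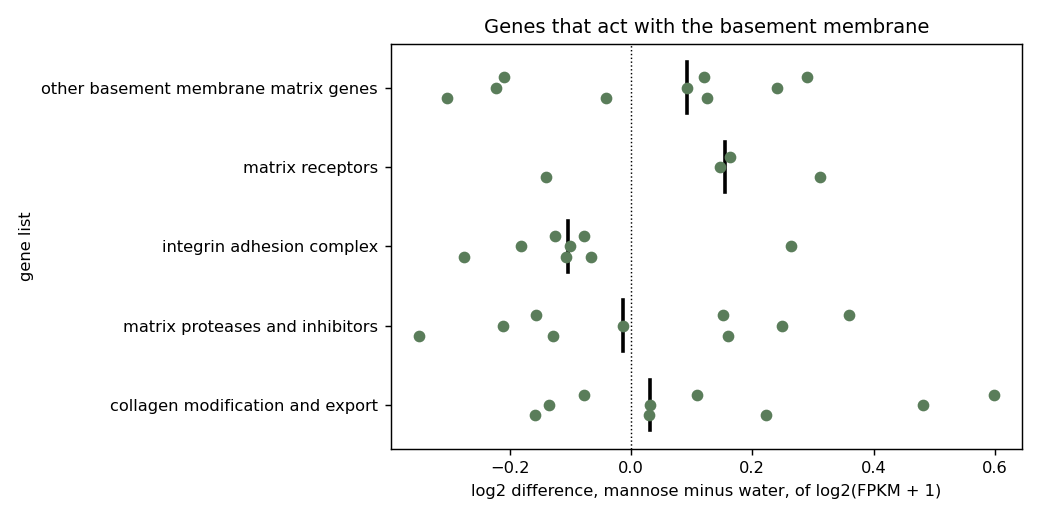
Log2 difference, mannose minus water, on log2(FPKM + 1), of each tested gene (points) in the 5 lists of genes that act with the basement membrane, with the list median (bar). The medians lie between −0.10 and 0.15, and points lie on both sides of 0 in each list.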

How the data were processed

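The authors deposited FPKM values, 1 table per library, each with gene positions, a length column and names. The submitters' processing notes name cutadapt, FastQC, HISAT2 2.1.0 and the build WBcel235. The labels' protocols name both a TruSeq and a VAHTS library kit without saying which was used for which library, so the kit cannot be set beside the values of a library. Which tool counted the reads, and with which strand setting, was not given in the sources used here. That the values are proportional to reads per gene length, as FPKM are, follows from the values themselves. Multiplied by gene length, 95.0% to 95.8% of values worth up to 20 reads were whole multiples of 1 step within 0.05 of a read. This gave the read equivalents. The library size implied by the step was not their sum. It was 37994435 against a sum of 42681903 in mannose 1, and 38608907 against 46041030 in water 3. In the rest it was above the sum, as in mannose 3 (49383935 against 43739044). How this size was set was not given in the sources used here. Genes with at least 1 FPKM in at least 3 libraries (11237) were tested with limma 3.58.1 (R 4.3.3, trend and robust) on log2(FPKM + 1), mannose minus water, two-sided, with Benjamini-Hochberg adjustment over all of them; the procedure was checked on simulated data. Fold changes on this scale understate those of low genes. Positions are those of the deposited tables. Exons came from Ensembl release 115, also WBcel235. The alternatives were another pseudocount, other filters and scaling, limma-voom, a length correction, left-out libraries and a replicate block. The closest pair of libraries differed by 50.0 times sampling noise, so none was counted as a duplicate. Members, lists and tests were chosen with earlier results of these data known. Genes named were the 10 members, the 3 of each list with the smallest p, and the 3 closest in pattern to each tested member. The genes unc-52, pxn-1, dgn-1 and tns-1 were added after their values were seen. So were dpy-18, phy-2, phy-3, phy-4, pdi-1, pdi-2 and pdi-3, and the muscle markers unc-54 and hlh-1. Of the lists, tmem-39 matched no gene name.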

Additional observations from a re-analysis of the deposited data

How the results depend on the processing

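The 7 tested members entered all 16 fits and were called in none; epi-1, lam-3 and pxn-2 entered 2, those with no filter and with a minimum of 10 read equivalents, and were not called there. Of 108 recomputed member differences all but 4 kept their sign, and the median of the tested members ran from −0.21 to 0.20 when 1 library was left out. The exceptions were lam-2 with length trends removed (−0.17) and cle-1, which ran from −0.31 to 0.27 when 1 library was left out and turned sign without mannose 2, mannose 3 or water 3. Part of the 108 could not turn sign. Other filters, the replicate block and the term for mannose 1 and water 3 leave the estimate of a member as it was. Over all genes limma called 0 to 2 when 1 library was left out (2 without mannose 1), 3 without mannose 1 and water 3, and 0 in the other fits; at an unadjusted p under 0.05 there were 532 genes, 535 with limma-voom and 1453 with a term for mannose 1 and water 3. With length trends removed the list medians were −0.11 for other matrix genes, −0.071 for receptors and −0.25 for the integrin adhesion complex. Leaving out 1 library gave −0.022 to 0.15 for other matrix genes, 0.073 to 0.24 for receptors, −0.18 to −0.063 for the adhesion complex, −0.13 to −0.012 for proteases and −0.18 to 0.34 for collagen modification. The cause was not tested. The replicate numbers did not pair the libraries: deviations from the group means correlated at −0.74, 0.24 and −0.71 between same-numbered libraries, and mannose 1 correlated best with water 3 (0.77). With the replicate number as a block 0 genes were called (164 at an unadjusted p under 0.05), and the p of lam-1 was 0.22. Upper-quartile scaling turned the direction of none of the 7 tested members. For pxn-2 and lam-3 reads were few, at 52 to 88 and 80 to 292 read equivalents. How far this limits their precision beside the 3 libraries a group was not tested.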

Other observations

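The deposited tables themselves annotate 23 genes to the basement membrane, 7 of them members; lam-2, cle-1 and pxn-2 lack the term. Of the 16 others, 11 were tested, and 9 of these had higher estimates in mannose (median log2 difference 0.17). Over all tested genes 54.5% had higher estimates, with a median of 0.015. None passed the limma test, 0 of the 11 had an unadjusted p under 0.05, against 4.73% of all tested genes, and the groups did not overlap in 1, unc-6, against 10.7% of all tested genes. This list was taken up after the data were seen, and it shares genes with the lists of other matrix genes, receptors and proteases. Higher estimates were also common among long genes in general. Of tested genes of 2000 to 4000 bases 73.5% were higher (median 0.13), and of those of 4000 bases or more 78.4% (median 0.19). Values of this list with length trends removed were not worked out, and the part of gene length in it was not tested.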
